A study of Mus musculus with 6 samples.

Results

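The 7 genes Nr2f2, Nr2f1, Pdgfra, Tcf21, Lum, Ptn and Olfml3, known from progenitors of the ovarian stroma, were followed in whole ovaries of mice 1 day after birth (1 dpp). They were taken by name from a deposited table of 47122 gene models, and all 7 were found. All 7 also passed the filter on low values, which kept the 14589 genes that reached 1 FPKM in 3 or more of the 6 samples. FPKM are fragment counts scaled to gene length and to library size, so levels of different genes can be set side by side. The study compared 3 ovary samples labelled WT with 3 labelled BCAS2 cKO, a conditional knockout in which Bcas2, a splicing factor gene, was deleted in oocytes. The sources used here give neither the driver of the deletion nor the strain, nor whether a sample pooled several animals. The p-values below therefore reflect only how far these 6 samples spread, and that spread may be technical. A description label also mentions granulosa cells, while title, tissue and design give ovary. Markers of both main ovarian cell kinds were present in each library, with the oocyte gene Dppa3 at 338.1 to 565.4 FPKM and the granulosa transcription factor gene Foxl2 at 82.25 to 163.2 FPKM.

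The stroma is the connective tissue between the follicles. Its progenitors are known to give rise to fibroblasts and, later, to steroid-producing theca and interstitial cells, and they lie in the newborn ovary beside the cords of oocytes and pregranulosa cells. Nr2f2 and Nr2f1 encode the orphan nuclear receptors COUP-TFII and COUP-TFI, Tcf21 a basic helix-loop-helix factor of gonadal and other mesenchyme, and Pdgfra a tyrosine kinase receptor for platelet-derived growth factors. Lum encodes lumican, a small leucine-rich proteoglycan that binds collagen fibrils. Ptn encodes pleiotrophin, a secreted heparin-binding growth factor, and Olfml3 a secreted olfactomedin-domain protein.

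To show the regulatory sequence behind these genes, RefSeq start-site windows (GRCm38.p6, from 250 bases before to 50 bases after the start) were searched for motifs on both strands. Windows were matched for 6 of the 7 members, 7 windows in all, since Nr2f1 has 2. Lum was not matched. The nuclear receptor half-site AGGTCA was in 0 of the 7 windows, against 16.3% of all 32851 windows of this length. The E-box CANNTG, the kind of site that helix-loop-helix factors such as TCF21 bind, was in 4 of the 7, against 72.3% of all. The GC box GGGCGG was in 2 of the 7 (35.7% of all), and TATAAA in 0 of the 7 (13.6% of all). Such a match is a description of the letters and does not show binding. The windows of Nr2f2, Pdgfra and Olfml3 are printed 5′ to 3′ because these 3 members stood farthest above the next library in 1 WT sample, as given below. E-boxes are in capitals, of which there are 2 in Nr2f2, 2 in Pdgfra and 1 in Olfml3.
Nr2f2 promoter, chr7:70366697-70366996, minus strand: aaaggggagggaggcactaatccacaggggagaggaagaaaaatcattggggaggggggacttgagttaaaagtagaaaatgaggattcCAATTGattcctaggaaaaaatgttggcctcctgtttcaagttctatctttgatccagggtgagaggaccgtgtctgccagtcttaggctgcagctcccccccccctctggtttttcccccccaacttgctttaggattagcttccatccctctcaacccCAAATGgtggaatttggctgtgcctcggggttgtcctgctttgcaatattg
Pdgfra promoter, chr5:75152001-75152300, plus strand: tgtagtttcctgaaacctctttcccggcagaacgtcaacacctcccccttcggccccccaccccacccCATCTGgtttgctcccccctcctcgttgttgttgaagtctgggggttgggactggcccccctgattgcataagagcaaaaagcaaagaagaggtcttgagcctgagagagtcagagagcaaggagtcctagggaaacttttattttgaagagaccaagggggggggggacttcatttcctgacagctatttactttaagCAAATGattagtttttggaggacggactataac
Olfml3 promoter, chr3:103737952-103738251, minus strand: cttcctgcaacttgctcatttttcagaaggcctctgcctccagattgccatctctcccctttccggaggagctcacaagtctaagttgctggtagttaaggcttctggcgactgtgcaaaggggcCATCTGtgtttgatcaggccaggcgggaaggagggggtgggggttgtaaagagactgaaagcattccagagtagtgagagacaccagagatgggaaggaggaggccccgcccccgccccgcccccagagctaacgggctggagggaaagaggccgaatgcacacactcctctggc

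The expression data have one feature that precedes every result here. WT replicate 1 was the highest of the 6 libraries for 7 of the 7 members, against 27.6% of all tested genes. It reached at least 2 times the next library for 4 of the 7 (Olfml3, Pdgfra, Nr2f2 and Tcf21), against 2.43% of all tested genes. The median ratio of this library to the mean of the other 5 was 2.57 over the members and 0.982 over all tested genes. The members were chosen with earlier results of these data known, so these comparisons with all genes are descriptions and test nothing. Because of WT replicate 1, results are given with all 6 libraries and without that one. The fragments recovered per library numbered 16800421 to 19565275, and a member rested on 147 to 5366 of them, except Nr2f1 with 41 to 108. Bcas2 itself stood at 54.5, 37.5 and 35.7 FPKM in WT, against 18.9, 21.9 and 18.3 in cKO, without overlap, as for 7.88% of all tested genes. Its log2 fold change was −1.05 (SE 0.17, unadjusted p = 0.000502, adjusted p = 0.955 in limma). Without WT replicate 1 it was −0.86 (unadjusted p = 0.000172, adjusted p = 0.835 in limma). The deleted gene itself was thus not called, so the absence of a call does not show that a gene is unchanged.

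By mean level over the 6 libraries, Ptn came first (65.7 ± 19.2 FPKM, SD over 6 libraries), followed by Tcf21 (47.03 ± 24.6), Lum (25.2 ± 9.27), Pdgfra (12.7 ± 10.2), Olfml3 (10.8 ± 9.21), Nr2f2 (9.82 ± 6.63) and Nr2f1 (1.37 ± 0.428). Ptn lay above Tcf21 in 5 of the 6 libraries, and Pdgfra above Olfml3 in 5. Olfml3 lay above Nr2f2 in only 3, so these neighbours did not differ beyond their spread. Tcf21 lay above Lum, Lum above Pdgfra, and Nr2f2 above Nr2f1 in 6 of 6.

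Among the transcription factors, Nr2f2 was at 23.2, 8.03 and 5.85 FPKM in WT replicates 1, 2 and 3, against 7.13, 6.23 and 8.51 in cKO replicates 1, 2 and 3. One WT library was far above the rest. Of the other 2, one lay within the range of the cKO values and one below it. The fit across all genes (limma on log2(FPKM + 1), cKO minus WT) gave −0.47 as the log2 fold change (SE 0.44, 95% interval −1.51 to 0.56, adjusted p = 0.955). Without WT replicate 1 it was 0.07 (SE 0.17, 95% interval −0.35 to 0.48). The lncRNA gene B130024G19Rik on the opposite strand overlaps Nr2f2 by 1364 bases and was at 0.904 to 4.88 FPKM. Reads of such partners cannot be told apart if counting ignored strand, and the sources used here do not give the strand setting.

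Tcf21 was at 95.9, 41.5 and 27.4 FPKM in WT, against 44.9, 36.01 and 36.6 in cKO. All 3 cKO values lay within the WT range. The log2 fold change was −0.29 (SE 0.41, 95% interval −1.26 to 0.68, adjusted p = 0.957 in limma) and 0.20 (SE 0.19) without WT replicate 1. Gm10824, an lncRNA gene on the opposite strand, covers all 2881 bases of Tcf21 and was at 0.353 to 1.76 FPKM.

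Nr2f1, the close relative of Nr2f2, was the least abundant member and the only one with a higher mean in cKO. It was at 1.93, 0.737 and 1.04 FPKM in WT, against 1.44, 1.41 and 1.65 in cKO. Behind these are 108, 41 and 65 recovered reads in WT and 80, 76 and 98 in cKO, and the exact Poisson 95% interval for WT replicate 2, 0.529 to 0.99978 FPKM, covers counting error only. The groups overlapped because WT replicate 1 was the highest and the other 2 WT libraries the lowest. The log2 fold change was 0.19 (SE 0.22, 95% interval −0.32 to 0.71, adjusted p = 0.955 in limma). Without WT replicate 1 the groups did not overlap, as for 16.3% of all tested genes. The value was then 0.41 (SE 0.17, 95% interval 0.0034 to 0.81) with an unadjusted p of 0.0486 and an adjusted p of 0.99984 in limma. An exact two-sided permutation test gave p = 0.2, the smallest that 2 against 3 allow. Without WT replicate 2, in place of replicate 1, the log2 fold change of Nr2f1 was 0.030. The opposite-strand lncRNA gene A830082K12Rik overlaps Nr2f1 by 857 bases and was at 0.150 to 0.375 FPKM.

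For the receptor gene Pdgfra the values were 33.2, 9.38 and 7.48 FPKM in WT, against 11.4, 7.29 and 7.30 in cKO. WT replicate 1 stood 2.92 times above the next library, and the other 5 spanned a factor of 1.56. The log2 fold change was −0.61 (SE 0.50, 95% interval −1.80 to 0.59, adjusted p = 0.955 in limma). It was 0.01 (SE 0.21, 95% interval −0.48 to 0.51) without that library.

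Of the 3 members with secreted products, Lum was at 42.3, 26.9 and 16.3 FPKM in WT, against 24.95, 22.3 and 18.5 in cKO. The cKO values again lay inside the WT range, and the log2 fold change was −0.28 (SE 0.31, adjusted p = 0.955 in limma) with all libraries and 0.05 (SE 0.22) without WT replicate 1. Ptn was at 91.7, 85.7 and 42.7 FPKM in WT, against 63.8, 56.7 and 53.6 in cKO. Here 2 WT libraries were high, replicate 1 stood only 1.07 times above replicate 2, and replicate 3 was the lowest of all 6. Its log2 fold change was −0.26 (SE 0.28, 95% interval −0.92 to 0.40, adjusted p = 0.955 in limma) and −0.06 (SE 0.27) without WT replicate 1, so Ptn alone among the members kept a lower mean log2 value in cKO. The opposite-strand lncRNA gene LOC118567378, which overlaps Ptn by 11378 bases, was at 0 to 0.0795 FPKM.

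Olfml3 had the widest range relative to its level, 29.1, 9.92 and 4.33 FPKM in WT against 9.28, 6.06 and 6.10 FPKM in cKO. Its log2 fold change was −0.59 (SE 0.57, 95% interval −1.95 to 0.77, adjusted p = 0.955 in limma) and 0.07 (SE 0.32, 95% interval −0.69 to 0.84) without WT replicate 1. Olfml3 lies on chromosome 3 from 103642710 to 103645317 (GRCm39, minus strand), 556 kb from Bcas2, and is the only member on that chromosome. The others lie on chromosomes 5 (Pdgfra), 6 (Ptn), 7 (Nr2f2), 10 (Tcf21 and Lum) and 13 (Nr2f1).

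**Figure D1:**
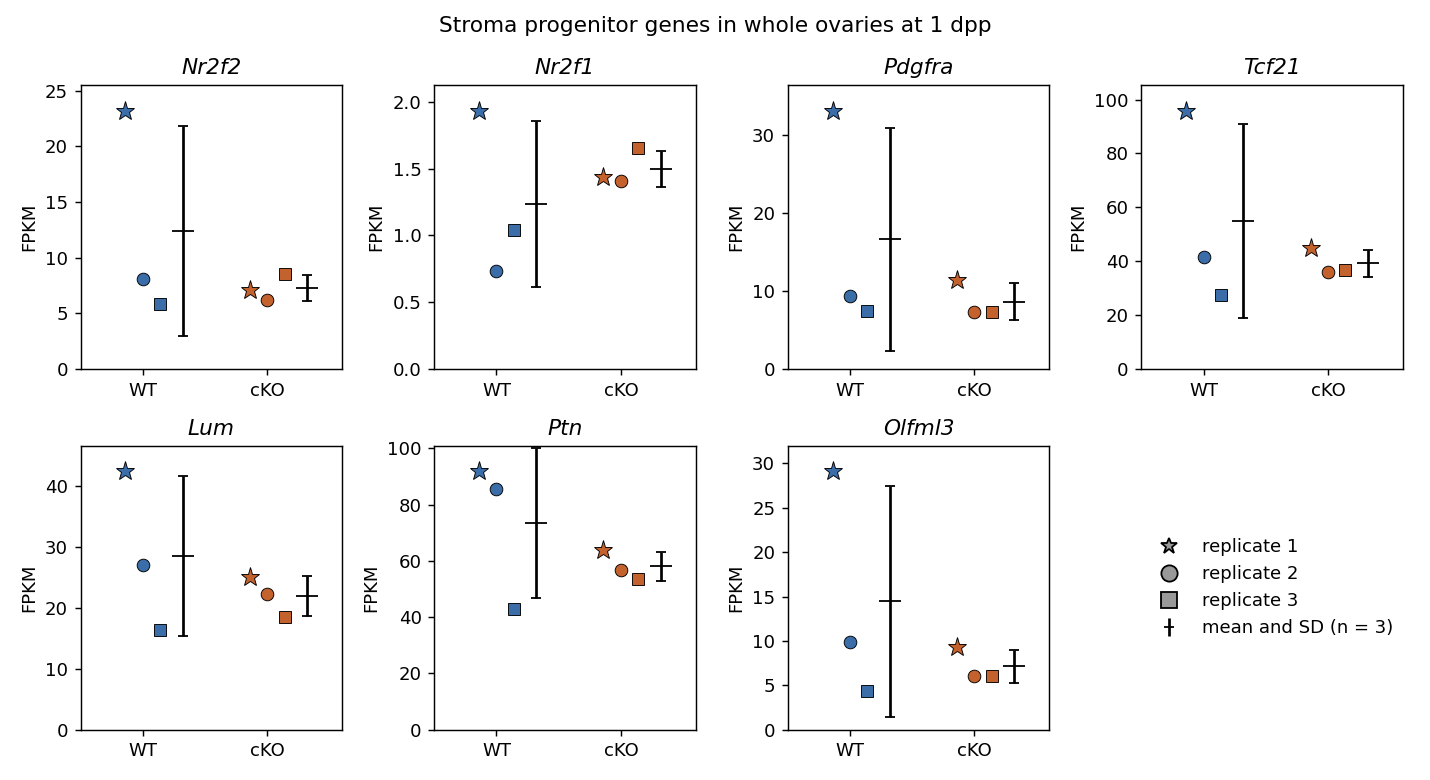
FPKM of each member in each library by group, with the mean and SD of 3 libraries beside the points (vertical axes start at 0 and differ between genes). The star of WT replicate 1 is the highest point in all 7 panels. The cKO points lie closer together than the WT points. Relative to the mean their spread is widest for Pdgfra, at 7.29 to 11.4 FPKM.

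As a set, 0 of the 7 members passed an adjusted p under 0.05 in limma, as did 0% of all tested genes. At an unadjusted p under 0.05 there were 0 members, against 3.04% of all tested genes. Groups overlapped for 7 of 7, where 7.88% of all tested genes had groups that did not overlap. With all libraries 6 members had a lower and 1 a higher mean log2 value in cKO, and their median log2 fold change was −0.29, where all tested genes had −0.0058. Without WT replicate 1 the same call rule gave 0 members and 0% of all genes, and the unadjusted rule 1 member, Nr2f1, against 3.61% of all genes. There were then 6 members with a higher and 1 with a lower value in cKO, and the median was 0.07. Two-sided exact permutation tests of the 6 values gave p between 0.4 for Ptn and 0.8 for Tcf21, where 0.1 is the smallest that 3 against 3 can give.

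With all libraries the spread of each member was wider within WT than within cKO. The coefficient of variation (SD over mean, n = 3 each) ran from 36.4% for Ptn to 89.9% for Olfml3 in WT, and from 8.85% for Nr2f1 to 27.1% for Pdgfra in cKO. Over the 2 WT libraries other than replicate 1 it ran from 15.9% for Pdgfra, below the cKO value, to 55.4% for Olfml3. For Nr2f2 it was 22.2% against 76.4% with all 3, and for Ptn it was 47.3% against 36.4%. No member was called as changed, and in whole ovaries a different share of stromal cells and different RNA per cell cannot be told apart.

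**Figure D2:**
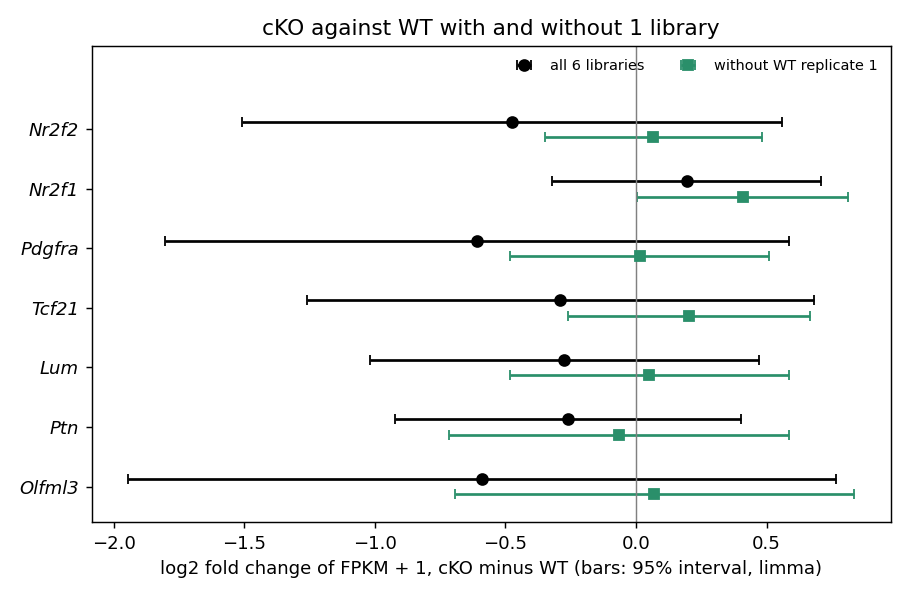
Log2 fold change (cKO minus WT, on log2(FPKM + 1)) of each member with all 6 libraries and without WT replicate 1, with 95% intervals from limma. All 7 intervals from the 6 libraries include 0, and the estimate of 5 members (Nr2f2, Pdgfra, Tcf21, Lum and Olfml3) moves from below to above 0 when that library is left out.

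Each member's nearest relatives and partners were examined next. In all 7 such lists, the wider stroma list included, 0 genes passed the adjusted test in limma, with all libraries or without WT replicate 1. Among 6 tested relatives and cofactors of the NR2F receptors, 4 were lower and 2 higher in cKO, with a median log2 fold change of −0.11. The related receptor gene Nr2f6 was at 27.6 ± 4.03 FPKM in WT, against 27.9 ± 1.42 in cKO (SD, n = 3 each). Zfpm2, which encodes the GATA cofactor FOG2, followed the members instead, with 17.5, 7.14 and 5.04 FPKM in WT, against 7.39, 5.86 and 6.70 in cKO. Its relative Zfpm1 was at 15.6 ± 2.69 and 15.8 ± 4.09 FPKM, and the orphan receptor gene Nr2c2 at 6.03 ± 0.899 and 4.90 ± 0.936 FPKM.

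The PDGF family held 6 tested genes, 5 lower and 1 higher in cKO (median −0.17, and 0.05 without WT replicate 1). Of the ligand genes, Pdgfb, named here only once its values were known, was at 4.62 FPKM in WT replicate 1 and at 1.84 to 2.41 FPKM in the other 5. Over all 6 libraries Pdgfa was at 6.50 to 9.06 FPKM, Pdgfc at 7.37 to 12.3 FPKM and Pdgfd at 7.44 to 8.95 FPKM. The receptor-like gene Pdgfrl was at 16.5 FPKM in WT replicate 1 and at 4.54 to 7.20 FPKM in the other 5. Pdgfrb, the receptor gene of pericytes, was named for the planned ratio with Pdgfra and stood at 24.1 FPKM in that library against 2.20 to 4.10 FPKM in the others.

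Of 9 tested partners and relatives of TCF21, 6 were higher and 3 lower in cKO, with a median of 0.08 and 0.25 without WT replicate 1. At an unadjusted p under 0.05 in limma there were 2 of the 9, Id1 and Scx, and 4 without that library, against 3.04% and 3.61% of all tested genes. Tcf3, whose product pairs with tissue-specific helix-loop-helix factors, was at 61.3 ± 2.51 FPKM in WT, against 63.01 ± 6.19 in cKO (SD, n = 3 each). The Id genes encode inhibitors that bind such partners without binding DNA. Id1 was at 75.1, 59.03 and 66.3 FPKM in WT, against 93.2, 150.0 and 92.8 in cKO, without overlap. Its log2 fold change was 0.71, with an unadjusted p of 0.0108 and an adjusted p of 0.955 in limma, and 0.79 without WT replicate 1. Id2 (89.2 ± 24.99 and 92.2 ± 5.61 FPKM) and Id3 (92.5 ± 29.2 and 104.1 ± 14.3 FPKM) overlapped with all libraries. Without WT replicate 1 the groups of both genes did not overlap, as for 16.3% of all tested genes. The log2 fold changes were then 0.30 for Id2 and 0.45 for Id3 (unadjusted p = 0.0269 and 0.0172, adjusted p = 0.99984 for both in limma). Scx, a tendon factor gene named here only once its values were known, was at 2.18 to 3.28 FPKM in WT, against 4.45 to 4.85 in cKO.

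Small leucine-rich proteoglycans, the family of lumican, had 6 of 11 listed genes tested, 4 lower and 2 higher in cKO (median −0.24, and −0.03 without WT replicate 1). Dcn, encoding decorin, was at 122.7, 115.9 and 78.1 FPKM in WT, against 91.7, 79.9 and 82.1 in cKO. Bgn, encoding biglycan, was at 241.2 FPKM in WT replicate 1 and at 45.7 to 72.8 FPKM in the other 5. Ogn was at 7.03 to 9.75 FPKM over all 6, and Prelp at 3.06 to 7.60 FPKM.

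Among 8 tested relatives and receptors of pleiotrophin, 7 were lower and 1 higher in cKO (median −0.21, and −0.02 without WT replicate 1). The most abundant were Ncl at 87.1 ± 14.96 and 89.6 ± 2.87 FPKM, Sdc4 at 73.3 ± 8.44 and 68.6 ± 12.1 FPKM, Sdc2 at 61.2 ± 13.004 and 50.7 ± 7.51 FPKM, and Sdc1 at 58.7 ± 6.80 and 50.9 ± 4.78 FPKM in WT and cKO (SD, n = 3 each). The last 3 encode syndecans, cell-surface heparan sulfate proteoglycans. Of the olfactomedin family 5 of 9 were tested and 5 were lower in cKO (median −0.32, and −0.03 without WT replicate 1). Olfml2a was at 7.62 FPKM in WT replicate 1 and at 1.01 to 2.20 FPKM elsewhere, and Olfml1 at 17.4 against 5.85 to 10.5 FPKM. Olfml2b was at 13.6 FPKM there against 10.3 to 12.6 FPKM, and Olfm1 at 30.3 against 20.9 to 39.1 FPKM.

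The wider stroma and mesenchyme list had 33 tested genes, 28 lower and 5 higher in cKO, with a median log2 fold change of −0.35. Without WT replicate 1 there were 16 lower and 17 higher, and the median was 0.02. In 27 of the 33 that library was the highest, and in 19 it reached at least 2 times the next. Its most abundant genes were collagens and a microfibril gene. Col3a1 was at 536.1, 251.5 and 141.3 FPKM in WT, against 198.3, 154.3 and 162.9 in cKO. Col1a1 was at 251.4, 95.8 and 61.3 FPKM against 58.9, 35.9 and 65.95 FPKM, with a log2 fold change of −1.121 (adjusted p = 0.955 in limma) and −0.55 without WT replicate 1. Col1a2 reached 284.2 FPKM and Mfap2 182.5 FPKM in WT replicate 1, against at most 103.2 and 67.8 FPKM elsewhere.

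Ratios of 2 genes within a library do not depend on library scaling. Nr2f1 to Nr2f2 was 0.0834, 0.0917 and 0.177 in WT and 0.202, 0.226 and 0.194 in cKO. The 3 cKO ratios were all above the WT ratios, with log2 means of −3.17 ± 0.59 and −2.27 ± 0.12 (SD, n = 3 each). The difference was 0.90, with an exact two-sided permutation p of 0.1, the smallest possible, and 0.4 after Benjamini-Hochberg adjustment over the 4 ratios examined. With 0.5 FPKM added to each value the exact p was 0.2, and after quantile normalization it was 0.3 with a difference of 0.65. Without WT replicate 1 it was 0.70 (exact p = 0.2, again the smallest possible).

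Pdgfra to Pdgfrb was 1.38 in WT replicate 1 and 2.30 to 3.41 in the other 5, so Pdgfrb exceeded its usual share there by more than Pdgfra did. Its log2 difference was 0.13 (exact p = 1), and −0.28 without that library (exact p = 0.2). Lum to Dcn was 0.345 in WT replicate 1 and 0.208 to 0.279 elsewhere, with a difference of 0.01 (exact p = 1). Ptn to Mdk, the gene of the related factor midkine, was 1.42, 1.80 and 1.46 in WT and 1.56, 1.12 and 1.39 in cKO, with a difference of −0.21 (exact p = 0.4). After adjustment these 3 had p-values of 1, 1 and 0.8 by the permutation test.

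**Figure D3:**
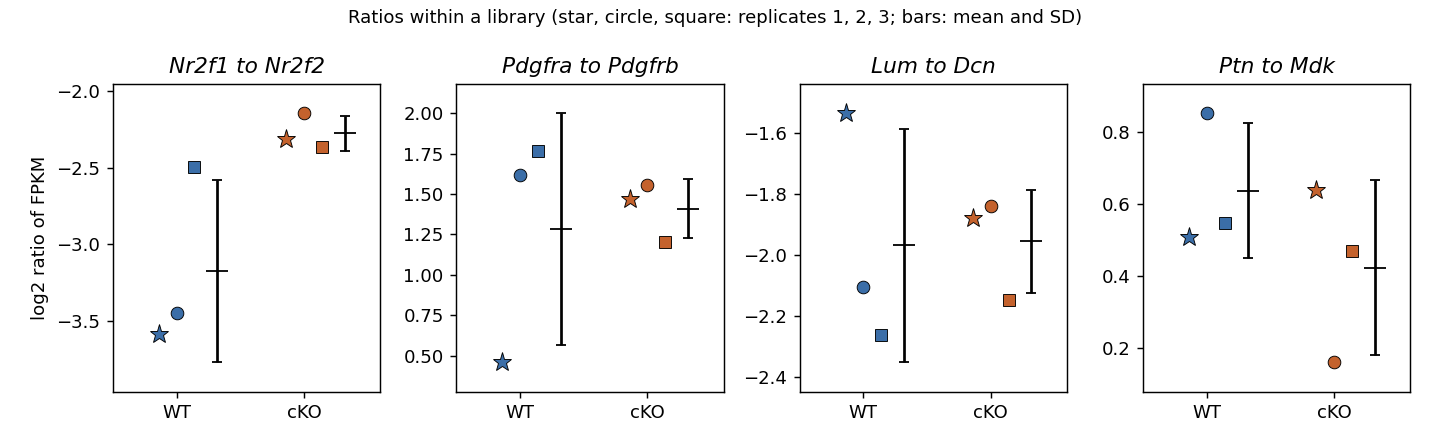
Log2 ratio of FPKM of 2 genes within each library, by group, for the 4 planned pairs, with mean and SD of 3 libraries (vertical axes differ and do not start at 0). The cKO points lie above all WT points for Nr2f1 to Nr2f2 only, and WT replicate 1 stands alone at the bottom for Pdgfra to Pdgfrb. Counting error of single points is not drawn.

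Profiles were compared after centring each gene's log2(FPKM + 1) on its mean over the 6 libraries. The mean profile of the members was 1.04 in WT replicate 1, −0.0032 and −0.54 in WT replicates 2 and 3, and 0.0090, −0.27 and −0.23 in cKO replicates 1, 2 and 3. WT replicate 3 was the lowest library for Nr2f2, Tcf21, Lum, Ptn and Olfml3. Tcf21 lay nearest to this mean profile (root mean square difference 0.064) and Nr2f1 farthest (0.42). Of 2155 other protein-coding genes with a range at least 0.5 times as wide, whose median difference was 0.49, the 6 nearest were Nrep (0.030), Smtn (0.047), Prrx1 (0.055), Zfpm2 (0.061), D630003M21Rik (0.061) and Stab1 (0.067). Nrep was at 156.7, 71.6 and 50.3 FPKM in WT, against 76.1, 63.1 and 62.9 in cKO. Prrx1 encodes a homeodomain factor of mesenchyme and was at 4.42, 1.82 and 1.05 FPKM against 1.75, 1.41 and 1.39 FPKM. For single members the nearest gene was Pdzrn3 for Nr2f2 (0.080), Cyp11a1 for Nr2f1 (0.069), Enpp1 for Pdgfra (0.061), Nrep for Tcf21 (0.046), Bmp1 for Lum (0.042), P4ha3 for Ptn (0.11) and Islr for Olfml3 (0.043). These are descriptions over 6 libraries, in which WT replicate 1 sets most of the range.

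Markers of blood vessel cells were high and low in the same WT libraries as the members. Endothelial genes were highest in WT replicate 1 for 13 of 13 tested. The summed level of all 15 listed was 213.4 FPKM there, 50.7 to 77.0 FPKM in the other WT libraries and 60.04 to 77.6 FPKM in cKO. Pericyte and smooth muscle genes were highest there for 10 of 11 tested, with a sum of 123.5 FPKM against 28.3 to 38.9 FPKM in the other WT libraries and 33.5 to 43.3 FPKM in cKO. No gene of these lists was at 0 in any library. Their centred means in WT replicates 1, 2 and 3 were 1.20, −0.08 and −0.53 for endothelial and 1.16, −0.12 and −0.47 for pericyte genes, beside 1.04, −0.0032 and −0.54 for the members. The 7 members summed to 317.3, 182.2 and 105.1 FPKM in WT, against 162.8, 135.9 and 132.2 in cKO. Esam, the most abundant endothelial gene listed, was at 20.1 FPKM in WT replicate 1 and 8.01 to 12.7 FPKM elsewhere. The endothelial cadherin gene Cdh5, named by a mean that includes WT replicate 1, was at 37.2 FPKM there and 5.38 to 8.33 FPKM elsewhere. Kdr, named once its values were known, had the smallest excess of the listed endothelial genes, 15.7 FPKM there and 6.35 to 12.8 FPKM elsewhere. Acta2, the smooth muscle actin gene, was at 27.1 FPKM against 7.97 to 11.4 FPKM.

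Other compartments were mixed, and some also had their highest sum in WT replicate 1. Surface epithelium genes were highest in WT replicate 1 for 0 of 13 tested, and their sum was 504.9 FPKM there against 947.2 to 1122 FPKM in the other 5. Aldh1a1, the most abundant of them, was at 188.2 FPKM there against 246.7 to 312.2 FPKM. Krt8, an epithelial keratin gene, was at 60.7 FPKM in WT replicate 1 against 132.5 to 166.1 FPKM. Pregranulosa genes summed to 874.4 FPKM there against 652.4 to 832.0 FPKM, and 7 of 14 tested were highest there. Of the 15 listed, 1, Fshr, was at 0 in at least 1 library. Oocyte genes summed to 1051 FPKM there against 1086 to 1572 FPKM, and 0 of 12 tested were highest there. Of the 14 listed, 1, Oosp1, was at 0 in at least 1 library. Oocyte genes were highest in WT replicate 3 by centred mean (0.38), the library in which the members were lowest.

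Steroidogenic and theca genes summed to 73.8 FPKM in WT replicate 1 and to 53.2 to 65.2 FPKM elsewhere. Of the 6 tested, 3 were highest there, and Insl3 was at 0 in at least 1 library. Macrophage genes summed to 42.4 FPKM in WT replicate 1 and to 28.6 to 39.6 FPKM elsewhere, and 4 of 8 tested were highest there. Mesonephric and oviduct epithelium genes summed to 77.2 FPKM there and to 79.6 to 110.4 FPKM elsewhere, with Lhx1 at 0 in at least 1 library. WT replicate 1 was the highest for 1 of the 7 tested. Of these 7, 5 were higher in cKO (median log2 fold change 0.59), and 4 had an unadjusted p under 0.05 in limma, against 3.04% of all tested genes. Erythroid genes summed to 13734 FPKM in cKO replicate 2 and to 405.6 to 1242 FPKM in the other 5. What part these differences between libraries have in the members' values was not tested.

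**Figure D4:**
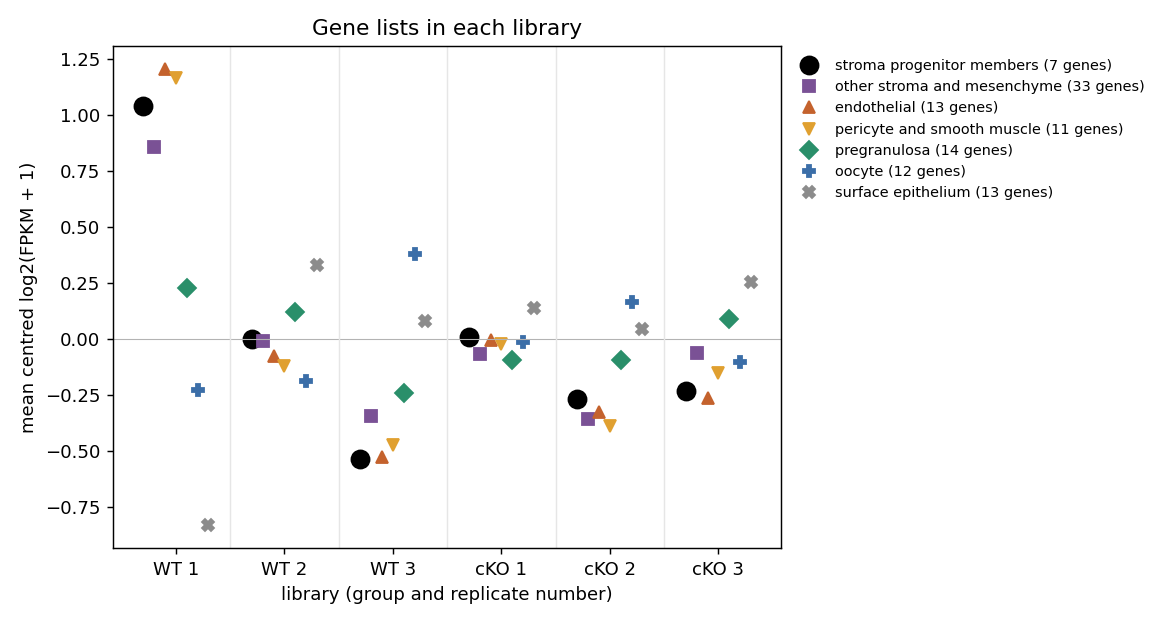
Mean of log2(FPKM + 1), centred for each gene on its mean over 6 libraries, for the members and 6 lists of other genes in each library. The members stand at 1.04 in WT replicate 1, close to endothelial (1.20) and pericyte genes (1.16), while surface epithelium genes stand at −0.83 there.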

How the data were processed

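RNA sequencing of whole ovaries at 1 dpp gave 6 libraries, 3 WT and 3 cKO, grouped and numbered by their titles and matched to columns by their descriptions. The authors deposited FPKM values and a gene length for each of 47122 gene models. Reads went through HISAT2 2.0.5, per the submitters' processing notes, which list both mm10 and GRCm39. Coordinates in the table are on GRCm39 accessions. The sources used here do not give the counting tool, annotation release, strand setting or filters.

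FPKM times length, divided by 1 step per library, gave whole reads (100% of values of up to 500 reads lay within 0.05 of a whole number). FPKM were tested as log2(FPKM + 1) with limma 3.58.1 in R 4.3.3 (trend, two-sided, Benjamini-Hochberg over 14589 genes, threshold 0.05), without a block. The fit was checked on simulated data in which every library had the same spread. That check does not cover data with a library like WT replicate 1. Exact permutation tests used scipy 1.17.1. The members and the gene lists were chosen with earlier results of these data known. The naming rule took all members, Bcas2, the 4 most abundant genes of each list of relatives and of the stroma list, the 2 most abundant of each other cell type, and the genes nearest in profile. Named genes of the cell-type lists are given only where they bear on a result. The result of 1 further list is not reported here. Alternatives were other pseudocounts, filters and scalings, a replicate block, array weights, limma-voom on recovered reads, and leaving out each library.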

Additional observations from a re-analysis of the deposited data

How the results depend on the processing

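No member passed an adjusted p under 0.05 in limma under any of the 16 alternatives run. The median over the members was −0.29 with all libraries, ran from −0.68 (without WT replicate 3) to 0.07 (without WT replicate 1), and was −0.18 with array weights, −0.37 after rescaling to TPM and −0.38 with a filter at 5 FPKM, which drops Nr2f1. Leaving out single libraries, the log2 fold change ran from −0.84 to 0.066 for Nr2f2, −0.99 to 0.01 for Pdgfra, −0.68 to 0.20 for Tcf21, −0.61 to 0.051 for Lum and −1.18 to 0.070 for Olfml3, and only leaving out WT replicate 1 turned their sign. It ran from 0.030 to 0.41 for Nr2f1 and from −0.61 to −0.06 for Ptn. Without WT replicate 3, Ptn (−0.61, unadjusted p = 0.00173), Lum and Olfml3 had an unadjusted p under 0.05 in limma. Of all 14589 tested genes 1056 did so in that setting, against 443 with all libraries. That setting keeps WT replicate 1, the highest library for every member, and leaves out WT replicate 3, the lowest library for Ptn, Lum and Olfml3. What part either library has in these p-values was not tested. With array weights Nr2f1 (0.45) and Ptn (−0.44) had an unadjusted p under 0.05 in limma, as did 1990 of all 14589 tested genes. The other 69 alternative values of members kept their direction. Leaving out single libraries, the log2 ratio difference ran from −0.28 to 0.37 for Pdgfra to Pdgfrb, −0.13 to 0.23 for Lum to Dcn, 0.70 to 1.24 for Nr2f1 to Nr2f2 and −0.32 to −0.08 for Ptn to Mdk. After quantile normalization it was 0.65 for Nr2f1 to Nr2f2. Scaling a library cannot change a ratio, so TPM and median-of-ratios were not run for it, nor were filters, array weights and voom.

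Over all genes the adjusted count of 0 became 1 with array weights (Mir6999) and lay between 0 and 1 when single libraries were left out (Pcna-ps2, without cKO replicate 2). Both genes are named only for these calls. The count at an unadjusted p under 0.05 was 443, and became 1147 without a filter, 254 with the filter at 5 FPKM, 1990 with array weights, 1056 without WT replicate 3, and 293, 253 and 702 when cKO replicates 1, 2 and 3 were left out in turn. The array weights were 0.313, 4.87 and 0.462 for WT replicates 1, 2 and 3, and 2.13, 0.748 and 0.892 for cKO. In that setting WT replicate 2 thus counted most within WT. Why the other counts moved was not tested. Deviations of same-numbered libraries from their group means had correlations of 0.22, 0.014 and −0.028 for replicates 1, 2 and 3. Those of differently numbered libraries ran from −0.34 to 0.32. With 3 libraries per group this cannot decide whether the numbers pair the samples, and the labels do not state it. With the replicate block the members' median was −0.29 and 0 genes were called. Depth limits Nr2f1 most.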
